A study of Mus musculus with 6 samples.

Results

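Fatty acid synthesis and desaturation was described through 10 mouse genes, taken by symbol from the 52550 Ensembl genes listed for each library: Srebf1, Acly, Acaca, Fasn, Scd1, Scd2, Elovl5, Elovl6, Fads1 and Fads2. RNA came from colon epithelial cells of male mice with the genotype Apc Min/+, which carry 1 truncated copy of the tumour suppressor gene Apc. All mice had this genotype and were 5 to 6 weeks old. The treated group received atorvastatin at 20 mg/kg and the control group the vehicle, 2% Tween 80, in both cases by gavage on alternate days. Each group had 3 libraries, numbered as replicates, with no statement that they came from separate animals, so p-values measure the spread between these libraries, which may be technical. Atorvastatin inhibits HMG-CoA reductase, the enzyme that makes mevalonate on the way to cholesterol.

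Fatty acids are built in the cytosol from citrate. ATP citrate lyase (Acly) releases acetyl-CoA, acetyl-CoA carboxylase (Acaca) turns it into malonyl-CoA, and fatty acid synthase (Fasn) joins these units into palmitate. Elongases (Elovl genes) lengthen fatty acyl chains, the delta-9 desaturases (Scd genes) make monounsaturated fatty acids, and the delta-5 and delta-6 desaturases (Fads1 and Fads2) act on the polyunsaturated series. Srebf1 encodes SREBP1, a membrane-bound transcription factor whose released part switches on most of these genes. Its relative SREBP2 does the same for cholesterol synthesis. In the liver the nuclear receptor LXR, which senses oxysterols, activates transcription of Srebf1.

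Values are FPKM, fragments normalized to gene length and mapped total. All 10 genes passed the filter on low values (1 FPKM or more in 3 or more of the 6 libraries), as did 11644 genes in all. Every member had a positive log2 fold change with atorvastatin, on the log2(FPKM + 1) scale, with a median of 0.13. Over all tested genes the median was 0.02 and 57.3% were positive. In limma's test 0 members had an adjusted p under 0.05, a threshold that 0.404% of tested genes passed (0.155% higher and 0.249% lower). At an unadjusted p under 0.05, 3 members were higher and 0 lower, against 7.75% of tested genes higher. These 3 genes, Scd1, Fads1 and Elovl6, were also the members whose 3 atorvastatin libraries all lay above the 3 control libraries, which was the case for 12.0% of tested genes, while 6.05% lay lower without overlap. The other 7 members overlapped between the groups.

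**Figure D1:**
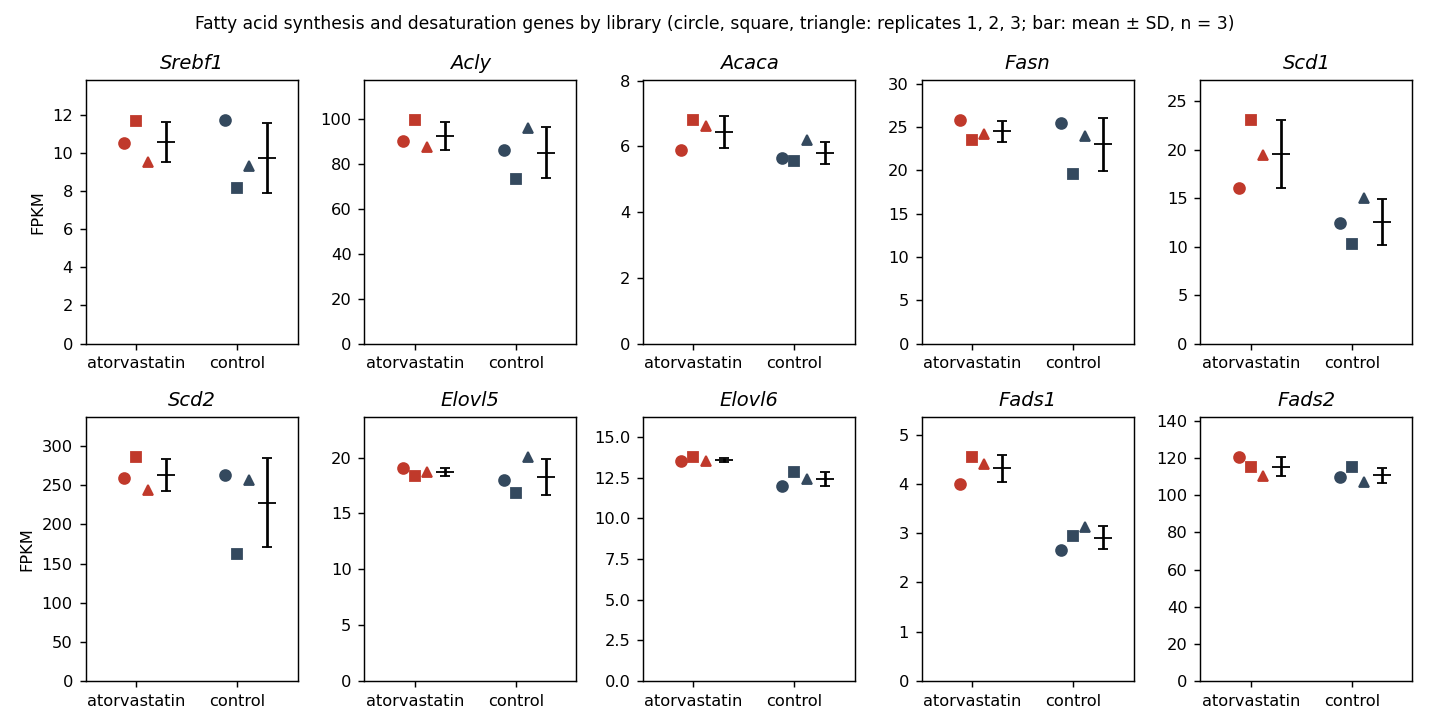
FPKM of each gene by library, with atorvastatin libraries on the left and control libraries on the right of each panel, replicates 1, 2 and 3 as circle, square and triangle, and the mean ± SD (n = 3) as a bar; each axis starts at 0. The groups are separate for Scd1, Elovl6 and Fads1, and control replicate 2 (square) is the lowest point for 7 of the 10 genes.

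Expressed per length, the levels of the members spanned a wide range. Scd2 was the most abundant, with a mean of 246 FPKM over the 6 libraries, above 99.0% of tested genes. It was followed by Fads2 at 113 FPKM, Acly at 88.8 FPKM, Fasn at 23.7 FPKM and Elovl5 at 18.5 FPKM. Scd1 averaged 16.0 FPKM, Elovl6 13.0 FPKM, Srebf1 10.2 FPKM, Acaca 6.12 FPKM and Fads1 3.61 FPKM. Of the 9 pairs of neighbours in this order, 6 did not overlap over the libraries. The 3 that did were Fasn and Elovl5, Elovl5 and Scd1, and Scd1 and Elovl6, although Fasn was above Elovl5 in each of the 6 libraries.

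Srebf1, the regulator (ENSMUSG00000020538, GRCm38, chr11:60199089-60222581, minus strand), had 10.5, 11.7 and 9.55 FPKM in atorvastatin libraries 1 to 3, against 11.7, 8.18 and 9.31 FPKM in control libraries 1 to 3. The groups overlapped, and the highest and the lowest library were both controls. Its log2 fold change was 0.12 ± 0.13 (standard error, 95% interval -0.18 to 0.42, limma adjusted p = 0.785). It was 0.01 without control replicate 2 and 0.25 without control replicate 1, where the unadjusted p was under 0.05. Part of its exons, 1.94%, overlaps Rai1 on the other strand, and the sources used here give no strand setting for the quantification. The tested genes of at least 5 FPKM whose values over the 6 libraries were most like those of Srebf1 included Atp5o, Gm10146, Tmem250-ps and Eps8, with Pearson correlations of log2 values between 0.981 and 0.994. This is a description over 6 libraries, in which 92 of 6619 such genes had a correlation over 0.9.

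The promoters of Srebf1 and Fasn are shown because, of 32851 promoter windows in the RefSeq table (GRCm38.p6, 250 bases before to 50 after a start), 3 hold the LXR element searched here, the half-sites GGGTTA and CGGTCA with 4 bases between them, on either strand. These belong to Srebf1, Fasn and Abca1, a cholesterol exporter gene and known LXR target. The search took only this spelling of the half-sites, with no record that it was chosen independently of the members. Other spellings of the element were not counted. The number of matching windows is therefore no test of the members. The table had 9 windows for 7 members, namely Srebf1 with 3 starts, and Acly, Acaca, Fasn, Elovl5, Elovl6 and Fads2. Scd1, Scd2 and Fads1 had none. The first sequence is the Srebf1 window that holds the element (chr11:60210422-60210721, minus strand) and the second is that of Fasn (chr11:120824498-120824797, minus strand). Both read 5′ to 3′, with matches to the LXR element and to the CCAAT box (CCAAT on either strand) in capitals.
Srebf1: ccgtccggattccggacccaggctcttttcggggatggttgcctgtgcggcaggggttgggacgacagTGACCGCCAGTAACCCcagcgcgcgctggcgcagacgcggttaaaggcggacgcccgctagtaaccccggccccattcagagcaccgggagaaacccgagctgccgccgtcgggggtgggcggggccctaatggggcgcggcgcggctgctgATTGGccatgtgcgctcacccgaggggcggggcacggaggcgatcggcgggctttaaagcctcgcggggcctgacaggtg
Fasn: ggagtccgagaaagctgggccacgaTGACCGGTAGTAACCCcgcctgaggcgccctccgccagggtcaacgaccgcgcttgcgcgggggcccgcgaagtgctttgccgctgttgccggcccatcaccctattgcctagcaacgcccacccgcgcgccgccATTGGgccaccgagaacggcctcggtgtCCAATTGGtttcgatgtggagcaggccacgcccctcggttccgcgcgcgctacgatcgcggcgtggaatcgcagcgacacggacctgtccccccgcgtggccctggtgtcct
The LXR element begins at position -182 from the start in Srebf1 and at position -225 in Fasn, in both cases on the opposite strand. The CCAAT box, the binding motif of NF-Y, matched once in this Srebf1 window and at 3 places in Fasn, of which 2 overlap each other, and 37.4% of all windows hold it. A sterol regulatory element written as TCACNCCAC, on either strand, is in 1.24% of all windows and in 0 of the 9 member windows. Those windows cover 7 members, so Scd1, Scd2 and Fads1 were not searched. The Acaca window (chr11:84195188-84195487) lies inside the gene, downstream of its first base at 84129672. Each motif was searched in the spelling given, so variants of a sterol regulatory element would be missed. Windows of this length leave out more distant sequence, and a match does not show that a factor binds.

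The genes that carry citrate carbon to palmitate, Acly, Acaca and Fasn, had positive fold changes whose intervals included 0. Acly (ENSMUSG00000020917, chr11:100476353-100528000, minus strand) had 90.2, 99.7 and 87.7 FPKM in atorvastatin libraries, against 86.1, 73.2 and 95.9 FPKM in controls. The control values enclosed 2 of the 3 atorvastatin values, and the log2 fold change was 0.13 ± 0.10 (95% interval -0.12 to 0.37, limma adjusted p = 0.707). Fasn (ENSMUSG00000025153, chr11:120805846-120824547, minus strand) had 25.8, 23.5 and 24.2 FPKM in atorvastatin libraries, against 25.4, 19.6 and 24.01 FPKM in controls. All but 1 of its control values lay among the atorvastatin values, and the log2 fold change was 0.09 ± 0.10 (95% interval -0.13 to 0.32, limma adjusted p = 0.773). For Acly and Fasn, 0 of the 50-base windows of their annotated transcripts occur in another gene's transcripts.

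Acaca (ENSMUSG00000020532, chr11:84129672-84401651, plus strand), which makes the committed step, had 5.898, 6.80 and 6.61 FPKM in atorvastatin libraries, against 5.66, 5.57 and 6.18 FPKM in controls. One control library lay above the lowest atorvastatin library. The log2 fold change was 0.13 ± 0.07 (95% interval -0.04 to 0.29, limma adjusted p = 0.535), and without atorvastatin replicate 1 it was 0.18, with an unadjusted p under 0.05. Its level is uncertain, because 30.4% of its 50-base transcript windows also occur in other genes' transcripts, nearly all of them in Gm5182. Gm5182 was itself listed at 1.73, 2.11 and 2.01 FPKM in atorvastatin libraries and at 1.79, 1.54 and 1.66 FPKM in controls.

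The 2 stearoyl-CoA desaturases expressed here lay in opposite orientation on chromosome 19, with 87590 bases between them. Scd1 (ENSMUSG00000037071, chr19:44394455-44407879, minus strand) had 16.1, 23.1 and 19.4 FPKM in atorvastatin libraries, against 12.4, 10.3 and 15.02 FPKM in controls. All 3 atorvastatin libraries were above all 3 controls, and the group means were 19.5 ± 3.5 FPKM with atorvastatin and 12.6 ± 2.4 FPKM in control (SD, n = 3 each), a ratio of 1.55. The log2 fold change of 0.60 ± 0.16 was the highest of the 10 genes (95% interval 0.21 to 0.98), and it did not pass the test over all genes (limma adjusted p = 0.213). Over the alternative settings this adjusted p ran from 0.131 to 0.501.

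Scd2 (ENSMUSG00000025203, chr19:44293674-44306864, plus strand), whose protein catalyses the same reaction, had 259, 286 and 245 FPKM in atorvastatin libraries, against 264, 163 and 257 FPKM in controls. Control replicate 2 lay far below the other 5 libraries, which spanned 245 to 286 FPKM. The log2 fold change was 0.24 ± 0.19 (95% interval -0.21 to 0.68, limma adjusted p = 0.698), and it was 0.01 without control replicate 2. Scd2 made up 94.2%, 92.5% and 92.6% of the summed FPKM of Scd1 and Scd2 in atorvastatin libraries, against 95.5%, 94.1% and 94.5% in controls. The means differed by -1.56 percentage points (exact permutation test, two-sided, p = 0.2, where the smallest p that 3 against 3 libraries allow is 0.1). Of the 50-base transcript windows, 4.56% in Scd1 and 3.97% in Scd2 also occur in other genes, chiefly in one another, Scd3 and Scd4. Scd3 and Scd4 were at most 0.202 FPKM in any library.

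The members held 2 elongase genes. Elovl6 (ENSMUSG00000041220, chr3:129532355-129638495, plus strand) extends palmitate to stearate. It had 13.6, 13.8 and 13.6 FPKM in atorvastatin libraries, against 12.01, 12.9 and 12.4 FPKM in controls. The groups did not overlap, but the step between them was small, with a ratio of means of 1.097 and a log2 fold change of 0.12 ± 0.05 (95% interval 0.01 to 0.24, limma adjusted p = 0.372). Its unadjusted p was 0.0356, which was no longer under 0.05 with median-ratio scaling, with either scaling to equal totals, with the replicate block, or with any library other than control replicate 2 left out. Elovl5, which extends polyunsaturated chains (ENSMUSG00000032349, chr9:77917364-77984519, plus strand), had 19.1, 18.4 and 18.8 FPKM in atorvastatin libraries, against 17.98, 16.8 and 20.03 FPKM in controls. Its control libraries enclosed the atorvastatin libraries on both sides, and the log2 fold change of 0.04 ± 0.07 was the lowest of the 10 genes (95% interval -0.12 to 0.20, limma adjusted p = 0.887).

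Fads1, the delta-5 desaturase gene (ENSMUSG00000010663, chr19:10182888-10196877, plus strand), came closest to the threshold. It had 4.003, 4.54 and 4.40 FPKM in atorvastatin libraries, against 2.66, 2.95 and 3.11 FPKM in controls. The lowest atorvastatin library was above the highest control, and the means were 4.31 ± 0.28 FPKM with atorvastatin and 2.91 ± 0.23 FPKM in control (SD, n = 3 each), a ratio of 1.48. The log2 fold change was 0.44 ± 0.07 (95% interval 0.28 to 0.61, limma adjusted p = 0.065), and its unadjusted p ranked 65 among the 11644 tested genes. Over the alternatives in which it was tested the adjusted p ran from 0.0607 to 0.28. None of its 50-base windows, 0 of 4995, occurs in another gene's transcripts. It was the least abundant member, and the log2(FPKM + 1) scale understates its fold change the most.

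Fads2, the delta-6 desaturase gene (ENSMUSG00000024665, chr19:10062765-10101746, minus strand), lies 81141 bases from Fads1 and is transcribed away from it. It had 120.4, 115 and 110.2 FPKM in atorvastatin libraries, against 109.7, 115 and 107 FPKM in controls. These ranges overlapped, with a log2 fold change of 0.06 ± 0.06 (95% interval -0.08 to 0.19, limma adjusted p = 0.762). Within each library Fads2 exceeded Fads1 in FPKM by a factor of 30.1, 25.4 and 25.05 with atorvastatin, against 41.2, 39.1 and 34.4 in control. The factor was thus smaller in each atorvastatin library than in any control library.

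**Figure D2:**
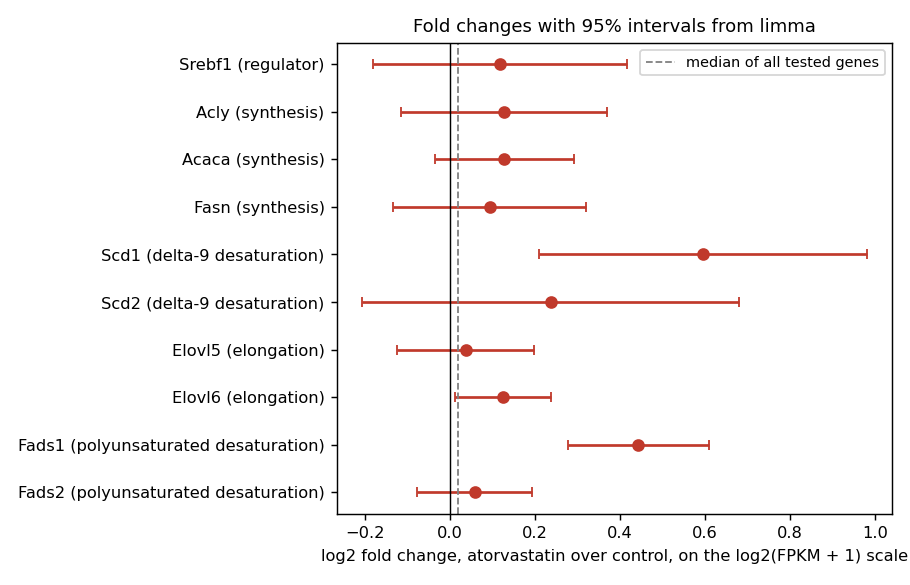
Log2 fold change of each gene, atorvastatin over control, with its 95% interval from limma; the solid line marks 0 and the dashed line the median of all tested genes, 0.02. All 10 points lie to the right of 0, and the intervals of Scd1, Elovl6 and Fads1 do not reach it, although no gene passed after adjustment over all genes.

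The libraries of a group were not alike for these genes. Control replicate 2 held the lowest value of 7 members (Srebf1, Acly, Acaca, Fasn, Scd1, Scd2 and Elovl5), where 23.1% of all tested genes were lowest in it. Atorvastatin replicate 2 held the highest value of 6 members, where 24.2% of tested genes were highest in it. The summed FPKM of the 10 genes was 565, 603 and 539 in atorvastatin libraries 1 to 3, against 547, 427 and 551 in control libraries 1 to 3. Without control replicate 2 the median log2 fold change of the members was 0.06, and 8 of 10 were positive. Fasn then had a value of -0.01 and Elovl5 of -0.02. Scd1, Fads1 and Elovl6 kept unadjusted p-values under 0.05 without that library, with log2 fold changes of 0.47, 0.45 and 0.15.

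**Figure D3:**
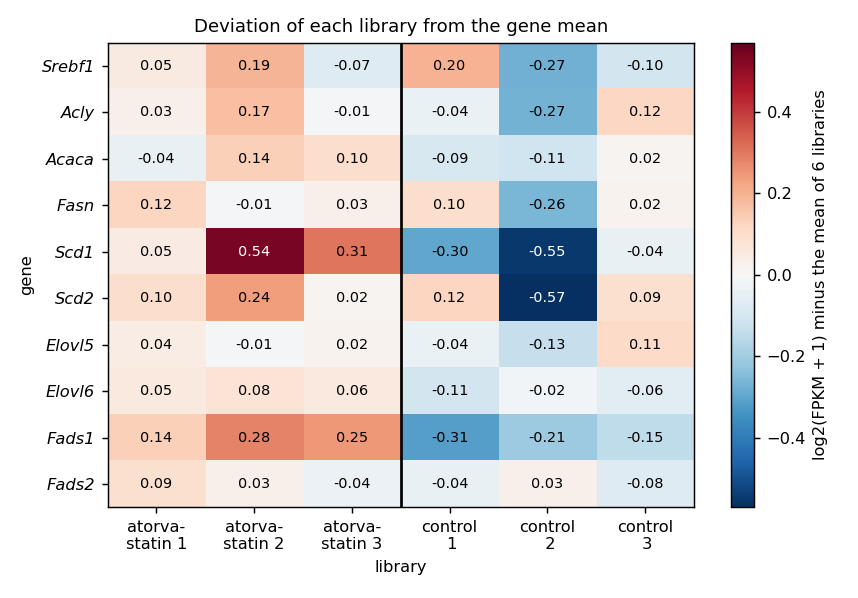
Deviation of each library's log2(FPKM + 1) from the mean of the 6 libraries, for each gene (rows), with atorvastatin libraries left of the line and control libraries right of it. Control replicate 2 is the lowest library for 7 genes. Fads1, Scd1 and Elovl6 are below their mean in all 3 controls and above it in all 3 atorvastatin libraries.

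The genes around the pathway were read from 7 further lists, of 74 genes in all, of which 62 were tested. None passed over all genes, 0 higher and 0 lower. At an unadjusted p under 0.05, 7 were higher and 5 lower, while 38 fold changes were positive and 24 negative, around a median of 0.03 on the log2 scale. Against that, 7.75% of tested genes were higher and 4.27% lower at the same unadjusted p. Over all tested genes 57.3% of fold changes were positive, the share beside which the counts per list below stand.

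Among 17 tested regulators of lipid synthesis, which included the SREBP machinery, LXR, the separate factor ChREBP and AMPK subunits, 10 had positive and 7 negative fold changes, around a median of 0.04. Srebf2 had 36.5 ± 1.5 FPKM with atorvastatin and 34.6 ± 1.4 FPKM in control (limma adjusted p = 0.662). Mbtps2, which encodes the site-2 protease that releases SREBP from the membrane, had 2.17 ± 0.02 FPKM with atorvastatin and 1.83 ± 0.13 FPKM in control (limma adjusted p = 0.366). Mlxipl, encoding the glucose-responsive factor ChREBP, had 5.38 ± 0.27 FPKM with atorvastatin and 4.28 ± 0.32 FPKM in control, and its partner Mlx had 38.1 ± 1.2 FPKM with atorvastatin and 28.7 ± 3.9 FPKM in control. Both were higher without overlap and did not pass (limma adjusted p = 0.168 and 0.162). The LXR alpha gene Nr1h3 had 4.93 ± 0.13 FPKM with atorvastatin and 5.72 ± 0.45 FPKM in control. Its partner Rxra had 13.8 ± 0.4 FPKM with atorvastatin and 15.2 ± 0.4 FPKM in control. Both were lower without overlap and did not pass (limma adjusted p = 0.350 and 0.339). Of the 17 regulators 4 were higher and 3 lower without overlap, against 12.0% and 6.05% of tested genes.

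In the supply of acetyl-CoA and NADPH, 5 of 11 tested genes were positive, around a median of -0.002. Acss2, which makes acetyl-CoA from acetate, had 14.1 ± 0.3 FPKM with atorvastatin and 12.5 ± 0.6 FPKM in control (limma adjusted p = 0.280). Malic enzyme (Me1), a source of NADPH, had 3.61 ± 0.40 FPKM with atorvastatin and 2.98 ± 0.25 FPKM in control (limma adjusted p = 0.374). Slc25a1, the mitochondrial citrate carrier, had 21.7 ± 2.3 FPKM with atorvastatin and 23.1 ± 1.5 FPKM in control.

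Of the other carboxylase and the mitochondrial pathway of fatty acid synthesis, 3 of 7 tested genes were positive, with a median of -0.01, and 0 had an unadjusted p under 0.05. Acacb, the mitochondrial-membrane carboxylase, was at 1.98 ± 0.03 FPKM with atorvastatin and 2.197 ± 0.015 FPKM in control. Among the partners of elongation, 5 of 7 tested genes were positive, with a median of 0.03. The 2 negative ones were the elongase genes Elovl7 and Elovl1. Elovl7 had 23.9 ± 1.5 FPKM with atorvastatin and 25.0 ± 0.3 FPKM in control (limma adjusted p = 0.723). Elovl1 had 14.1 ± 0.6 FPKM with atorvastatin and 14.4 ± 1.2 FPKM in control (limma adjusted p = 0.923). Elovl2, Elovl3 and Elovl4 were below 0.05 FPKM on average in both groups and were not tested. Among the partners of desaturation all 4 tested genes were positive, with a median of 0.12. Fads3, a paralogue of Fads1 and Fads2, had 3.31, 4.72 and 3.96 FPKM in atorvastatin libraries, against 3.15, 2.86 and 3.27 FPKM in controls. Its groups did not overlap (log2 fold change 0.28 ± 0.11, limma adjusted p = 0.365).

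Among 6 tested genes of fatty acid activation, 5 were positive, with a median of 0.11. Slc27a4, a fatty acid transport protein gene with acyl-CoA synthetase activity, was the exception, with 14.3 ± 1.3 FPKM with atorvastatin and 17.1 ± 1.3 FPKM in control (limma adjusted p = 0.304). In glycerolipid assembly 6 of 10 were positive, with a median of 0.04. Dgat2, which completes triglyceride synthesis, had 3.56 ± 0.34 FPKM with atorvastatin and 5.31 ± 0.98 FPKM in control (log2 fold change -0.46 ± 0.12, limma adjusted p = 0.181). Gpam, which starts that pathway, had 7.10 ± 0.80 FPKM with atorvastatin and 5.59 ± 0.40 FPKM in control (log2 fold change 0.29 ± 0.09, limma adjusted p = 0.243).

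Set beside the 20 enzymes of cholesterol synthesis, the fatty acid genes had a lower median. All 20 cholesterol genes were positive, around a median of 0.30, and 11 had an unadjusted p under 0.05, against a median of 0.13 and 3 of 10 in the fatty acid genes. Over all tested genes 57.3% were positive, and 7.75% were higher at that unadjusted p. The medians were 0.35 for the 8 genes up to farnesyl diphosphate and 0.24 for the 12 genes from squalene on. The difference between these lists was not tested. None of the 20 passed over all genes, and the smallest adjusted p was that of Fdps, which makes farnesyl diphosphate, at 0.0557, near that of Fads1. Without control replicate 2 the median of the cholesterol genes was 0.29. With median-ratio scaling, which moved the median of all tested genes to -0.0009, it was 0.28, and that of the fatty acid genes was 0.10.

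**Figure D4:**
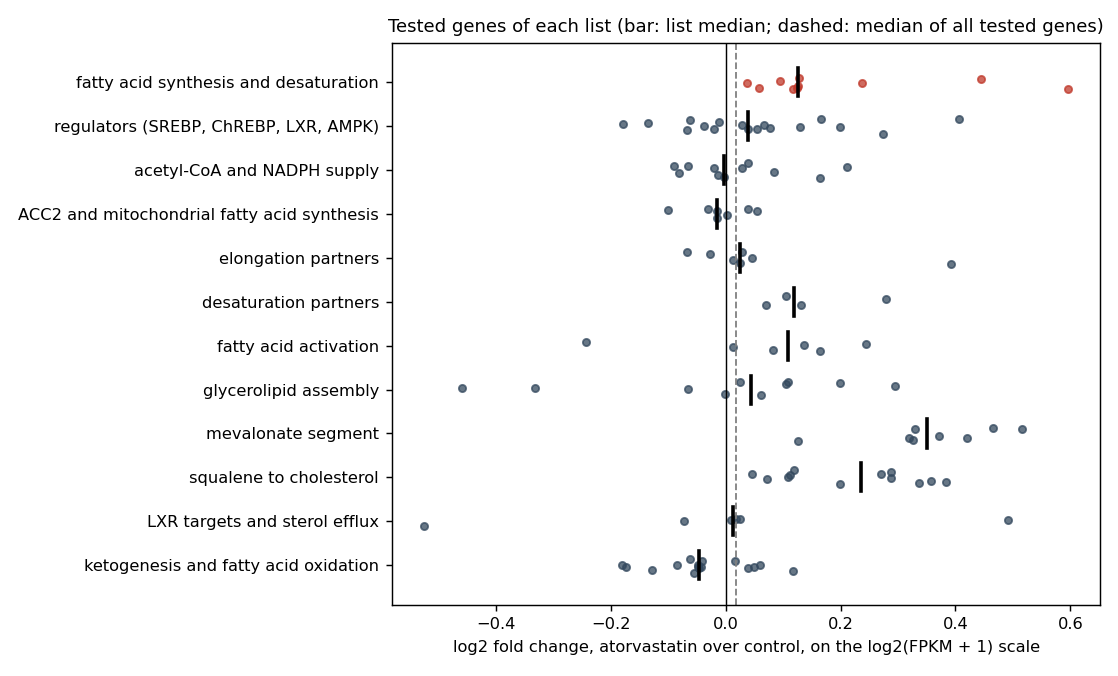
Log2 fold change of each tested gene, atorvastatin over control, by list, with the list median as a bar, 0 as a solid line and the median of all tested genes as a dashed line. The 10 fatty acid genes (top) run from 0.04 to 0.60 around a median of 0.13, below the medians of the cholesterol lists (0.35 and 0.24), while the medians of the other lists run from -0.05 to 0.12.

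The libraries showed the markers of colon epithelium, with Epcam at 510 ± 29 FPKM with atorvastatin and 555 ± 18 FPKM in control. The 13 epithelial markers summed to 9477 to 10885 FPKM in atorvastatin libraries and 9904 to 10870 FPKM in controls. Adipocytes, which express most of the fatty acid genes strongly, were looked for with 10 markers, which summed to 2.53 to 3.32 FPKM in atorvastatin libraries and 2.32 to 2.87 FPKM in controls. Plin1, Lep, Retn and Cfd were listed at 0 in every library. Of the others, only Cidec and Lipe passed the filter. Cidec had 1.08 ± 0.25 FPKM with atorvastatin and 1.25 ± 0.18 FPKM in control (limma adjusted p = 0.749). Lipe had 1.61 ± 0.16 FPKM with atorvastatin and 1.37 ± 0.15 FPKM in control, higher without overlap (limma adjusted p = 0.565). Cidea, below the filter, had 0.132 ± 0.036 FPKM with atorvastatin and 0.0228 ± 0.0040 FPKM in control. Markers of fibroblasts, endothelium and enteric glia or neurons summed to under 1 FPKM, and those of smooth muscle to under 2 FPKM, in every library. For 3 lists of leukocyte markers the sum in each atorvastatin library lay below that in every control, and the 10 of these 22 genes that were tested all had negative fold changes. Of these 10 genes, 0 passed limma's test over all genes and 6 lay lower with atorvastatin without overlap, against 6.05% of tested genes. The 9 T and NK cell genes summed to 11.8 to 16.7 FPKM with atorvastatin and 16.9 to 30.8 FPKM in control. The 6 B and plasma cell genes summed to 2.49 to 3.17 FPKM with atorvastatin and 5.06 to 11.1 FPKM in control. The 7 macrophage and dendritic cell genes summed to 3.004 to 3.59 FPKM with atorvastatin and 4.25 to 9.46 FPKM in control. Ptprc, the pan-leukocyte marker CD45, had 0.688, 0.824 and 1.17 FPKM in atorvastatin libraries, against 1.81, 1.98 and 1.15 FPKM in controls, which overlap. Their part in the values of the fatty acid genes was not tested, and in bulk RNA fewer cells of a type and less RNA per cell cannot be told apart. FPKM totals were 407857 to 430832 in atorvastatin libraries and 411364 to 423054 in controls, and mitochondrially encoded transcripts took 30.3% to 33.2% of them with atorvastatin and 30.6% to 32.7% in control.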

How the data were processed

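Total RNA from colon epithelial cells was sequenced in 3 atorvastatin and 3 control libraries. The authors deposited 1 FPKM value per Ensembl gene and library. The unit was read from the values, which are not whole numbers and whose totals differ between libraries. The submitters' processing notes name FastQC (version 0.11.2), Bowtie and the build mm10. The sources used here do not give the annotation, the tool that computed FPKM, whether strand was used, or how reads with several matches were treated. FPKM carries no read totals, so the depth is unknown, and precision is known only from the spread between libraries.

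Genes were named from a gene table (99.72% of identifiers), and coordinates are from GENCODE M21 on GRCm38, which mm10 denotes. Genes of 1 FPKM or more in 3 or more libraries were fitted on log2(FPKM + 1), a scale that understates changes of low genes, with limma 3.58.1 in R 4.3.3 (trended, robust, two-sided, Benjamini-Hochberg adjustment over 11644 genes, threshold 0.05), after a test on simulated data. The naming rule took every member, up to 4 genes of the smallest p in each other list, the genes most like Srebf1 and the marker of the highest mean. It also took Srebf2, Insig1, Hmgcs1 and Sqle where results are set beside cholesterol synthesis. Some of these genes, among them Insig1, Hmgcs1 and Sqle, are left out of the text. Mbtps2, Abca1, Acat2, Elovl2, Elovl3, Elovl4, Scd3, Scd4, Gm5182 and Rai1 lie outside the rule. So do Epcam, Cidec, Cidea and the adipocyte markers listed at 0. All of these were chosen after their values were seen. The design's count model did not apply to FPKM. The members and lists were chosen with earlier results of these data known. Alternatives covered pseudocount, filter, scaling, variance model, replicate block and leaving out each library. Shared sequence was counted as 50-base windows of GENCODE M21 transcripts, a length chosen here because the sources used give no read length.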

Additional observations from a re-analysis of the deposited data

How the results depend on the processing

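Over 17 alternatives 0 members were called and the median log2 fold change of the members stayed positive, at 0.103 to 0.131 over other pseudocounts, filters, scalings, variance model and replicate block, and 0.0556 to 0.153 with a library left out. Of the members, 10 were positive under each alternative, or 9 of 9 with a filter of 5 FPKM, which leaves out Fads1, and 8 without control replicate 2, where Fasn was at -0.0132 and Elovl5 at -0.0184. With a library left out, the log2 fold change ran from 0.397 to 0.486 for Fads1, 0.469 to 0.723 for Scd1, 0.102 to 0.147 for Elovl6, 0.012 to 0.359 for Scd2, 0.011 to 0.247 for Srebf1, 0.0235 to 0.216 for Acly, 0.092 to 0.181 for Acaca, -0.0132 to 0.167 for Fasn, -0.0184 to 0.102 for Elovl5 and 0.0269 to 0.0903 for Fads2. The difference in Scd2 share ran from -2.09 to -1.16 percentage points. Over all tested genes 47 were called, 2 with no filter on low values, 1 with the replicate block and 2 to 67 with a library left out (2 without control replicate 1, 30 without control replicate 2, 13 without atorvastatin replicate 1 and 17 without atorvastatin replicate 3); the cause was not tested. In the related lists 1 gene, Fdps, was called with a filter of 5 FPKM and with median-ratio, upper-quartile or quantile scaling, and 0 to 1 with a library left out, Acat2 without control replicate 3. Deviations from the group means had correlations of -0.139, -0.106 and 0.0136 between same-numbered libraries. With 3 libraries a group such deviations are tied to one another, so these values cannot decide whether the libraries were paired. In the limma fit with the block the adjusted p of Fads1 was 0.188. With the depth unknown, 3 libraries a group set the precision.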

Other observations

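Neighbouring routes of lipid metabolism were also read. Of 16 tested genes of ketogenesis and fatty acid oxidation, which break fatty acids down, 11 had negative and 5 positive log2 fold changes. Their median was -0.05, and 0 passed limma's test over all genes, which 0.404% of tested genes passed. Over all tested genes 57.3% of log2 fold changes were positive. Cpt2, the inner-membrane carnitine palmitoyltransferase gene, had 20.2 ± 0.9 FPKM with atorvastatin and 22.9 ± 0.8 FPKM in control (log2 fold change -0.17 ± 0.06, limma adjusted p = 0.282), and the acyl-CoA dehydrogenase gene Acadl had 70.8 ± 1.8 FPKM with atorvastatin and 77.6 ± 3.0 FPKM in control (log2 fold change -0.13 ± 0.05, limma adjusted p = 0.400). Both lay lower in each atorvastatin library than in any control library, as did Acadvl. In this list 3 genes were thus lower and 0 higher without overlap, against 6.05% and 12.0% of tested genes.

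Of 9 listed LXR targets and sterol efflux genes 6 were tested, and 0 had an unadjusted p under 0.05. Over all tested genes 7.75% were higher and 4.27% lower at that p. In this list 4 fold changes were positive and 2 negative, around a median of 0.01. Abcg5 had 3.52 ± 0.33 FPKM with atorvastatin and 2.41 ± 1.36 FPKM in control. Apoe had 1.40 ± 0.14 FPKM with atorvastatin and 2.75 ± 1.93 FPKM in control. Their log2 fold changes were 0.49 ± 0.29 and -0.52 ± 0.34 (limma adjusted p = 0.585 and 0.62). Abca1, whose promoter window shares the LXR element with Srebf1 and Fasn, was at 0.882 ± 0.181 FPKM with atorvastatin and 0.870 ± 0.172 FPKM in control, below the filter. Lpcat3, which puts polyunsaturated fatty acids into phospholipids, had 19.7 ± 0.3 FPKM with atorvastatin and 19.3 ± 1.1 FPKM in control (log2 fold change 0.03 ± 0.05, limma adjusted p = 0.904).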
